A study of Mus musculus with 8 samples.

Results

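The polyamine genes described here are Odc1, Srm, Sms, Amd1, Sat1, Azin1, Oaz1 and Oaz2, which encode the synthesis enzymes of the polyamines and their main regulators. They were taken by symbol from the deposited gene table, and all 8 were found among its 24054 genes and passed the filter on low counts, as did 11291 genes in all. The 8 libraries were made from polyA RNA of a pair of mouse WEHI lines that the labels call immature B lymphocytes. The 4 groups of 2 libraries were WEHI-miR-148a with anti-IgM, WEHI-miR-148a without stimulation, WEHI-control with anti-IgM, and WEHI-control without stimulation. Anti-IgM, an antibody that binds the B cell receptor, was given at 2 ug/ml over 14 h. All groups were grown in the same medium with serum and 2-mercaptoethanol. The labels give neither the vector behind the lines nor the number of clones in each, and the level of miR-148a itself was not analysed here. The comparisons ask how the lines respond to anti-IgM and how the miR-148a line differs from the control line.

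Polyamines (putrescine, spermidine and spermine) are small positively charged molecules that bind nucleic acids and that growing cells make in large amounts. ODC1 turns ornithine into putrescine, SRM and SMS add aminopropyl groups to give spermidine and then spermine, AMD1 makes the aminopropyl donor from S-adenosylmethionine, and SAT1 acetylates spermidine and spermine for breakdown or export. The antizymes OAZ1 and OAZ2 bind ODC1 and send it to the proteasome, and AZIN1 is an inactive relative of ODC1 that captures the antizymes. Odc1 is a textbook target of the transcription factor MYC, and cross-linking of the B cell receptor is known to stop growth of immature B cell lines.

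The sequence of miR-148a is shown because it is what the labels say sets the lines apart. Its mature form, mmu-miR-148a-3p in RefSeq (GRCm38.p6, chr6:51269829-51269850, minus strand), is printed with its seed, bases 2 to 8, in capitals. A 7-base match to that seed, TGCACTG, was searched on the sense strand of the longest annotated 3′ UTR of each gene (GENCODE M21, GRCm38). It was present in 1 of the 8 polyamine genes, Sms, and in 12.8% of 20831 genes with such a UTR. The Sms match is followed by A, which makes it an 8-base site, and lies at chrX:157445891-157445917 on the minus strand, with the match in capitals. The other members had none in UTRs of 312 bases (Srm) to 2934 bases (Azin1). A match is a string of letters and does not show that the site is used.
mmu-miR-148a-3p: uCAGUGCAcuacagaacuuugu
Sms 3′ UTR match: gactgcagaaTGCACTGaccccctaga

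The 250 bases before the RefSeq start are shown for genes that moved with anti-IgM (Odc1, Amd1 and Sat1), for Amd2, the near-identical copy of Amd1, and for the Sms start with a MYC-type E-box. The E-box CACGTG, which reads the same on both strands, was searched from 250 bases before to 50 bases after each start and is in capitals. RefSeq windows matched 6 of the 8 members. Srm and Azin1 had no entry. The motif was present in 1 of those 6, at 1 of the 2 Sms starts, 190 bases before it. Of the 27025 genes with a window, 8.09% held it. Sequence outside the windows, such as introns further downstream, was not searched, so a member without the motif here may hold it elsewhere. The windows, all in GRCm38.p6, are Odc1 at chr12:17544623-17544872 (plus strand), Amd1 at chr10:40302189-40302438 (minus), Amd2 at chr10:35711892-35712141 (minus), Sat1 at chrX:155216450-155216699 (minus) and Sms at chrX:157492288-157492537 (minus). Upstream of the starts the longest run of bases shared by Amd1 and Amd2 was 7.
Odc1: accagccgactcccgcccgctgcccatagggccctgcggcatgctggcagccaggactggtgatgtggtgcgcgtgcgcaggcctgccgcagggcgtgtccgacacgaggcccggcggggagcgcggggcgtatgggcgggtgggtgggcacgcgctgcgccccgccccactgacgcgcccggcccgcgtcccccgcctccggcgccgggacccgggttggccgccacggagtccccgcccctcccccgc
Amd1: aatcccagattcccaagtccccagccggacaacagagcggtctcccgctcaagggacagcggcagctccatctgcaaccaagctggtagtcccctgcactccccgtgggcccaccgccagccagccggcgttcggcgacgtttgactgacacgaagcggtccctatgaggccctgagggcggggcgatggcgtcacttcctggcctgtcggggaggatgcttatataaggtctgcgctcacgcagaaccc
Amd2: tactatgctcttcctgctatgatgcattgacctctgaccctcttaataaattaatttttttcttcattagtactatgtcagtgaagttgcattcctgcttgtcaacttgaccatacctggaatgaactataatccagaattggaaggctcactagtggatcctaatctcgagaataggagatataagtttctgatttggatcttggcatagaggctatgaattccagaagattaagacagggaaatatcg
Sat1: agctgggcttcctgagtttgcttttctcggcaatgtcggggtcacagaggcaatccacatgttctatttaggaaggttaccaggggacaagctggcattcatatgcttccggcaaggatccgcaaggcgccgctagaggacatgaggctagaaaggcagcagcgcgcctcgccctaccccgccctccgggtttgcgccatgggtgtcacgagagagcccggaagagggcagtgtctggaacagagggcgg
Sms: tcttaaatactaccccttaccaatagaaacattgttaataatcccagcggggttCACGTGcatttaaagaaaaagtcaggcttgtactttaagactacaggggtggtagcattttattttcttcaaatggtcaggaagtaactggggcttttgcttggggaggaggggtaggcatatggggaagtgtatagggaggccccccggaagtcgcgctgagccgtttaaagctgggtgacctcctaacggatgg

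Libraries held 5810227 to 18660373 counts, so 3 counts, the limit that a count of 0 allows, correspond to 0.166 to 0.502 CPM (counts per 1000000 counts, TMM-scaled). B cell markers were high in every library: 7 of 8 listed markers were measured, and their summed level was 2431 and 2702 CPM in miR-148a cells with anti-IgM, 2083 and 2197 without, 1903 and 2066 in control cells with anti-IgM, and 1952 and 2036 without. Markers of T cells, fibroblasts and erythroid cells summed to at most 2.12 CPM. The 6 listed monocyte and macrophage markers summed to 9.37 and 11.3 CPM in miR-148a cells with anti-IgM against 0.922 and 1.69 CPM without, and to 4.35 and 7.57 CPM in control cells with anti-IgM against 1.496 and 1.985 CPM without. Itgam (CD11b) made up most of this level with anti-IgM. It had 8.06 and 8.86 CPM in miR-148a cells with anti-IgM against 0.613 and 0.307 CPM without, and 3.85 and 5.57 CPM in control cells with anti-IgM against 0.388 and 0.451 CPM without. It was called higher in the miR-148a line (log2 fold change 4.17 ± 0.39, adjusted p = 0.000406 by edgeR's quasi-likelihood test) and in the control line (3.50 ± 0.40, adjusted p = 0.00163). Of the other listed markers, Lyz2, S100a8 and S100a9 had 0 counts in all 8 libraries. Csf1r had 2 and 14 counts in miR-148a cells with anti-IgM against 1 and 2 without. In control cells it had 0 and 7 with anti-IgM against 0 and 3 without. Emr1 had 6 and 12 counts in miR-148a cells with anti-IgM against 13 and 6 without. In control cells it had 3 and 16 with anti-IgM against 20 and 14 without. The part of these markers in the results below was not tested. In bulk RNA, fewer cells of a type and less RNA per cell cannot be told apart.

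Odc1 was the highest of the 8 polyamine genes in all 4 groups, both in CPM and per kb of annotated exon. Scaled to gene length, as CPM per kb of annotated exon, its level averaged 220.2 ± 49.8 in miR-148a cells with anti-IgM, 471 ± 43.6 in the unstimulated miR-148a line, 292 ± 5.42 in control cells with anti-IgM and 512 ± 30.5 in the unstimulated control line (SD, n = 2 each). Oaz2 was the least abundant in every group, at 13.1 ± 0.538 CPM per kb in miR-148a cells with anti-IgM, 11.4 ± 0.0262 without, 12.3 ± 0.898 in control cells with anti-IgM and 10.6 ± 0.145 without. The order in between changed with stimulation. On each gene's own counts, Srm was number 2 of the 8 in both unstimulated lines, at 103 ± 6.01 CPM per kb in the miR-148a line and 118 ± 17.3 in the control line. With anti-IgM it was number 5 in the miR-148a line (43.3 ± 2.98 CPM per kb) and number 4 in the control line (68.0 ± 20.3). Sat1 was number 3 in both anti-IgM groups, at 55.6 ± 3.48 CPM per kb in the miR-148a line and 69.9 ± 10.4 in the control line. Without stimulation it was number 7 in the miR-148a line (32.5 ± 0.193) and number 6 in the control line (38.9 ± 4.02). Several neighbours in these orders had overlapping spreads. In miR-148a cells with anti-IgM these were Azin1, Sat1 and Sms (48.9 to 65.7 CPM per kb), and also Sms, Srm and Oaz1 (43.2 to 48.9). In control cells with anti-IgM they were Sms, Sat1, Srm and Azin1 (65.2 to 73.3). In the unstimulated control line they were Srm and Sms (118 and 88.3), Sms and Azin1 (88.3 and 82.1), and Sat1 and Amd1 (38.9 and 37.9). In the unstimulated miR-148a line they were Azin1 and Sms (80.2 and 68.7). Oaz1 and Amd1 share sequence with near-identical copies described below, and this order depends on how reads matching both were assigned. With the copies summed, a choice made after seeing the data, Oaz1 was number 2 in all 4 groups, at 165 ± 4.85 CPM per kb in miR-148a cells with anti-IgM, 165 ± 7.25 without, 144 ± 11.4 in control cells with anti-IgM and 153 ± 4.54 without. Srm was then number 3 in both unstimulated lines. With anti-IgM it was number 6 in the miR-148a line and 5 in the control line, and Sat1 was number 4 in both. These lengths are unions of all annotated exons, 2558 bases for Oaz1 against 1071 for its longest coding transcript. Over the shorter length Oaz1 would stand higher, also against Odc1, and orders by transcript length were not computed. The plot of levels by library shows the values behind these means on the CPM scale.

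**Figure D1:**
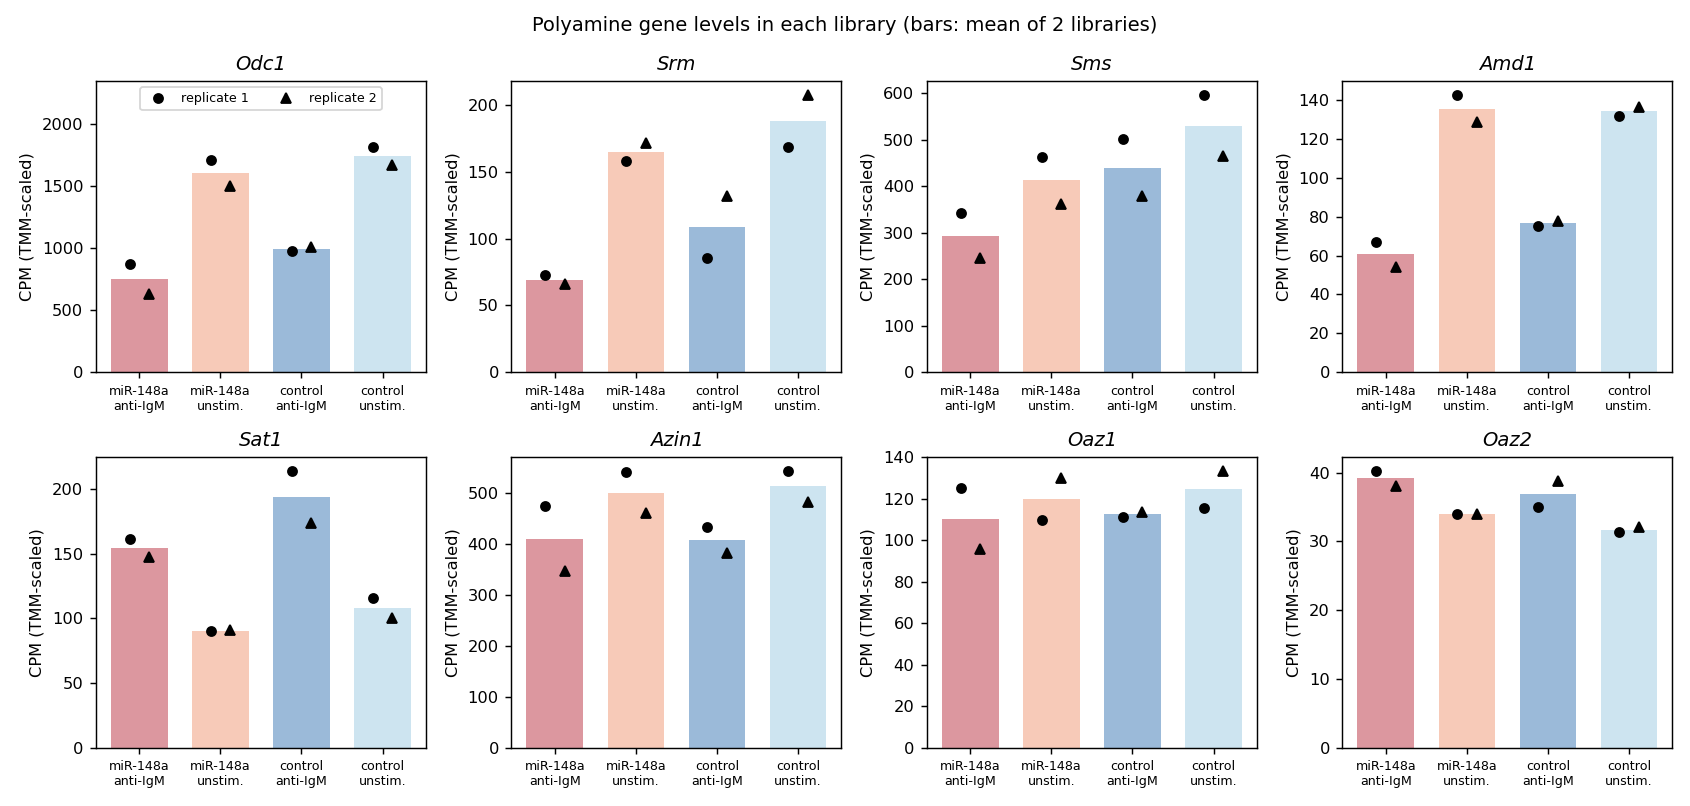
Level of each polyamine gene in the 8 libraries, in CPM scaled by TMM factors, from an axis starting at 0; bars are means of 2 libraries, circles replicate 1 and triangles replicate 2. Odc1, Srm and Amd1 sit lower and Sat1 higher in the anti-IgM libraries of both lines, whereas for Sms and Azin1 replicate 1 is above replicate 2 in all 4 groups.

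With anti-IgM the transcripts of 3 synthesis enzymes fell and that of the acetylating enzyme rose in both lines. Odc1, Srm and Amd1 fell, Sat1 rose, and Sms, Azin1, Oaz1 and Oaz2 did not pass the test. That is 4 of 8 genes called in the miR-148a line (1 higher and 3 lower), where 28.7% of all 11291 genes were called (14.7% higher and 14.0% lower). It is the same 4 genes in the control line, where 17.0% of all genes were called (9.60% higher and 7.45% lower). Calls are those of edgeR's quasi-likelihood test with Benjamini-Hochberg adjusted p under 0.05. The median log2 fold change of the 8 genes was -0.39 in the miR-148a line and -0.30 in the control line, against 0.00 and 0.01 over all genes tested. The responses of the lines share no library.

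Odc1 (ENSMUSG00000011179.8, chr12:17544794-17551505, plus strand) encodes ornithine decarboxylase, the rate-limiting enzyme. In the miR-148a line it had 869.5 and 629.8 CPM with anti-IgM against 1708 and 1498 CPM without. In the control line it had 981 and 1007 CPM with anti-IgM against 1817 and 1671 CPM without. All 4 anti-IgM libraries were below all 4 unstimulated ones. The log2 fold change was -1.10 ± 0.15 (SE, adjusted p = 0.00117) in the miR-148a line and -0.81 ± 0.14 (adjusted p = 0.00762) in the control line. Only 1.98% of the genes tested had a lower value in the miR-148a line, and 2.10% in the control line. Odc1 took 0.0650% to 0.102% of all counts in the anti-IgM libraries, against 0.148% to 0.176% in the unstimulated ones.

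Srm (ENSMUSG00000006442.10, chr4:148591503-148594993, plus strand) encodes spermidine synthase. It had 72.5 and 65.8 CPM in miR-148a cells with anti-IgM against 158 and 171 CPM without. Control cells had 85.7 and 132 CPM with anti-IgM against 168 and 208 CPM without. The groups did not overlap in either line, although the control anti-IgM libraries lay further apart than those of the miR-148a line. For Srm the log2 fold change was -1.25 ± 0.19 (adjusted p = 0.00202) in the miR-148a line, with 1.28% of genes lower, and -0.78 ± 0.19 (adjusted p = 0.0242) in the control line, with 2.39% of genes lower.

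Amd1 (ENSMUSG00000075232.5, chr10:40287458-40302186, minus strand) encodes S-adenosylmethionine decarboxylase, the second regulated step. It had 67.2 and 54.4 CPM in miR-148a cells with anti-IgM against 142.9 and 128.7 CPM without. In the control line it had 75.5 and 78.0 CPM with anti-IgM against 132 and 136.6 CPM without. The 4 anti-IgM libraries again lay below the 4 unstimulated ones. On the log2 scale Amd1 changed by -1.17 ± 0.12 (adjusted p = 0.000557) in the miR-148a line and -0.81 ± 0.12 (adjusted p = 0.00397) in the control line.

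Most of the Amd1 transcript sequence also occurs in Amd2, an intronless copy annotated as protein coding at chr10:35708675-35711892 (minus strand). The longest Amd1 transcript and the Amd2 transcript were identical at 99.6% of 3204 aligned bases, and 86.1% of the 50-base windows of Amd1 also occur in Amd2. Amd1 held 46.4% to 47.3% of the counts of the pair in every library. With both summed, the level was 144 and 117 CPM in miR-148a cells with anti-IgM against 307 and 272 CPM without, and 162 and 167 CPM in control cells with anti-IgM against 284 and 293 CPM without. The summed log2 fold change was -1.15 (adjusted p = 0.000556) in the miR-148a line and -0.81 (adjusted p = 0.00365) in the control line.

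Sms (ENSMUSG00000071708.11, chrX:157443855-157492287, minus strand) encodes spermine synthase, the last step. It had 342 and 245 CPM in miR-148a cells with anti-IgM against 464 and 363 CPM without, and 502 and 379 CPM in control cells with anti-IgM against 597 and 465 CPM without. Replicate 1 was above replicate 2 in all 4 groups, and anti-IgM was below no stimulation in both replicates of both lines. The log2 fold change was -0.49 ± 0.21 (adjusted p = 0.104) in the miR-148a line and -0.27 ± 0.21 (adjusted p = 0.405) in the control line, so Sms was not called in either. Libraries of one replicate number share a prefix in the labels and deviated together, and with that number as a block Sms was called lower in both lines, at -0.50 ± 0.07 (adjusted p = 4.04e-05) and -0.27 ± 0.07 (adjusted p = 0.00628) on the log2 scale. In the miR-148a line DESeq2 (adjusted p = 0.0322) and the fit without a filter on low counts (adjusted p = 0.0411) called it as well.

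Sat1 (ENSMUSG00000025283.15, chrX:155213132-155216449, minus strand) encodes spermidine/spermine acetyltransferase and was the 1 member that rose. In the miR-148a line it had 161 and 147 CPM with anti-IgM against 89.9 and 90.6 CPM without. Control cells had 214 and 173 CPM with anti-IgM against 116 and 99.9 CPM without. All 4 anti-IgM libraries were above all 4 unstimulated ones. Its log2 fold change was 0.77 ± 0.13 (adjusted p = 0.00288) in the miR-148a line and 0.84 ± 0.13 (adjusted p = 0.00418) in the control line. In the miR-148a line 11.1% of genes had a higher value, and in the control line 7.80%.

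The regulators of ODC1 protein moved little. Azin1 (ENSMUSG00000037458.15, chr15:38487427-38519266, minus strand), the antizyme inhibitor, had 475 and 347 CPM in miR-148a cells with anti-IgM against 542 and 461 CPM without, and 434 and 382 CPM in control cells with anti-IgM against 545 and 483 CPM without. The groups overlapped in the miR-148a line and did not in the control line. The log2 fold change was -0.29 ± 0.16 (adjusted p = 0.197) in the miR-148a line and -0.33 ± 0.16 (adjusted p = 0.174) in the control line. With the replicate block it was called lower in both, at -0.30 ± 0.08 (adjusted p = 0.00579) and -0.33 ± 0.08 (adjusted p = 0.00426). Replicate 1 was above replicate 2 in all 4 groups here too. The block fit therefore called 6 of the 8 genes in each line (5 lower and 1 higher). The same fit called 46.1% of all genes in the miR-148a line (22.8% higher and 23.3% lower) and 34.8% in the control line (17.6% higher and 17.2% lower).

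Oaz1 (ENSMUSG00000035242.15, chr10:80826656-80829290, plus strand), the main antizyme, whose full-length protein requires a ribosomal frameshift promoted by polyamines, had 125 and 95.7 CPM in miR-148a cells with anti-IgM against 109.9 and 129.9 CPM without. In the control line it had 111 and 114 CPM with anti-IgM against 115 and 134 CPM without. The miR-148a groups overlapped, and the control groups were separated by under 2 CPM. The log2 fold change was -0.12 ± 0.15 (adjusted p = 0.576, 95% interval -0.46 to 0.21) in the miR-148a line and -0.15 ± 0.15 (adjusted p = 0.550, interval -0.48 to 0.19) in the control line. Part of the Oaz1 transcript sequence also occurs in the processed pseudogene Oaz1-ps (chr17:17345456-17346140, minus strand), which was identical to Oaz1 at 99.9% of 681 aligned bases. Of the 50-base windows of the longest Oaz1 transcript, 52.2% occur in Oaz1-ps. Oaz1 took 22.3% to 33.4% of the counts of the pair. Summed, the pair gave log2 fold changes of 0.00 (adjusted p = 0.994) and -0.09 (adjusted p = 0.569).

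Oaz2 (ENSMUSG00000040652.16, chr9:65668001-65690300, plus strand), a second antizyme, had 40.3 and 38.0 CPM in miR-148a cells with anti-IgM against 33.9 and 34.1 CPM without, and 35.0 and 38.8 CPM in control cells with anti-IgM against 31.4 and 32.0 CPM without. The anti-IgM libraries were the higher ones in both lines with no overlap. Its log2 fold change was 0.20 ± 0.10 (adjusted p = 0.176, 95% interval -0.03 to 0.43) in the miR-148a line and 0.22 ± 0.10 (adjusted p = 0.170, interval -0.01 to 0.46) in the control line. Over all 8 members the groups did not overlap for 6 in the miR-148a line, where this held for 65.4% of genes tested, and for 7 in the control line, where it held for 59.5%.

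Of the 8 calls, 2 depended on single libraries, both in the control line. Without control anti-IgM replicate 1 the adjusted p was 0.0531 for Odc1 (log2 fold change -0.79) and 0.102 for Srm (-0.51), which leaves 2 members called there, and without unstimulated control replicate 2 it was 0.129 for Srm (-0.63). Without miR-148a anti-IgM replicate 1, Sms (-0.75, adjusted p = 0.0396) and Azin1 (-0.54, adjusted p = 0.0277) were also called in the miR-148a line, whereas without miR-148a anti-IgM replicate 2 their values were -0.28 and -0.082 and neither was called.

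**Figure D2:**
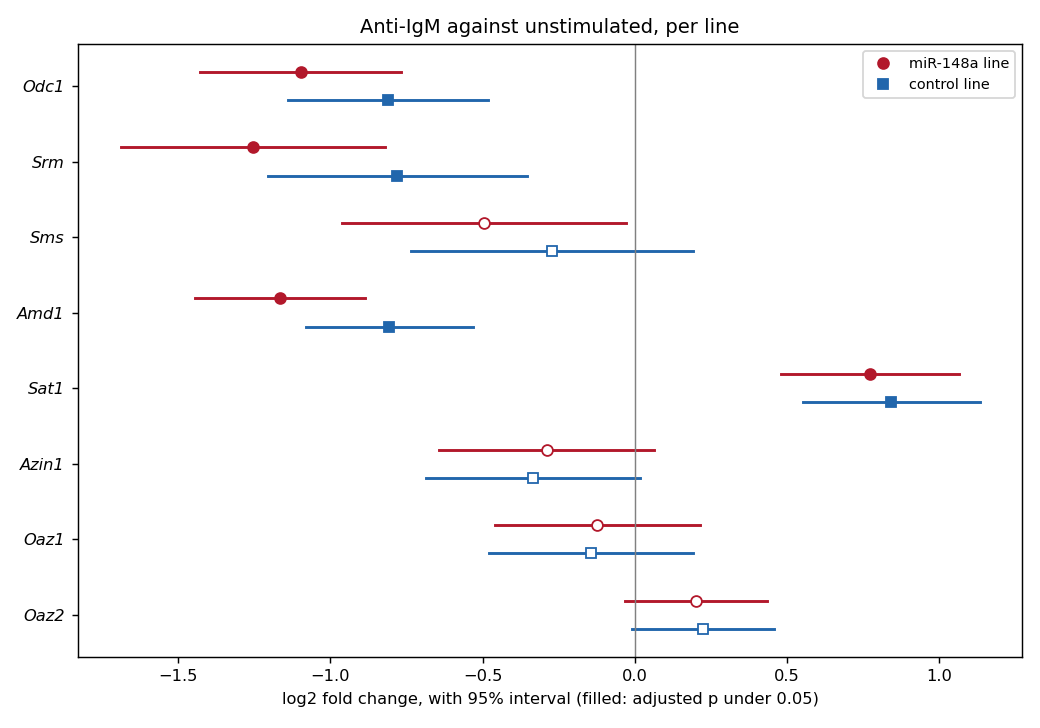
Log2 fold change of each polyamine gene with anti-IgM against no stimulation, with 95% intervals, for the miR-148a line (circles) and the control line (squares); filled symbols have an adjusted p under 0.05. Odc1, Srm and Amd1 lie between -1.25 and -0.78 and Sat1 at 0.77 and 0.84, while the intervals of Oaz1 and Oaz2 cross 0 in both lines.

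The balance between members within a library shifted with these changes. Counts of Sat1 per count of Odc1 were 0.185 and 0.234 in miR-148a cells with anti-IgM against 0.0526 and 0.0605 without, and 0.218 and 0.172 in control cells with anti-IgM against 0.0636 and 0.0598 without. The ratio was 3.69-fold higher with anti-IgM in the miR-148a line and 3.14-fold higher in the control line, as the mean over both replicates. Oaz2 per Odc1 was 0.0463 and 0.0604 in miR-148a cells with anti-IgM against 0.0199 and 0.0227 without, and 0.0357 and 0.0385 in control cells with anti-IgM against 0.0173 and 0.0192 without. The anti-IgM libraries were above the unstimulated ones in both ratios, with no overlap. Azin1 per Odc1 was 0.546 and 0.551 in miR-148a cells with anti-IgM against 0.318 and 0.307 without, and 0.442 and 0.379 in control cells with anti-IgM against 0.300 and 0.289 without. These ratios do not depend on the scaling of libraries, and they were given no test because they restate the changes above.

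**Figure D3:**
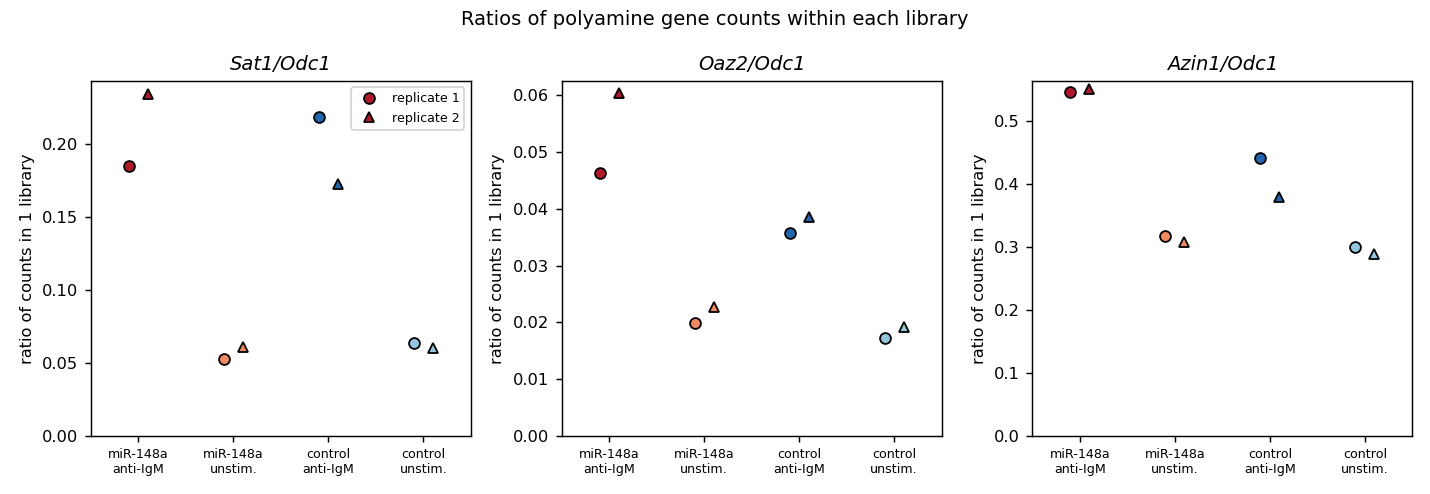
Ratio of the counts of Sat1, Oaz2 and Azin1 to those of Odc1 within each library, from axes starting at 0, by group, with circles for replicate 1 and triangles for replicate 2. In each panel the anti-IgM libraries of both lines lie above the unstimulated libraries.

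Between the lines under anti-IgM, the transcripts of the 4 synthesis enzymes and of Sat1 lay lower in the miR-148a line than in the control line in every library, but none passed the planned test. Among the 8 members 0 were called, where 2.52% of all genes were (1.36% higher and 1.16% lower). At an unadjusted p under 0.05 by the same test Odc1, Srm, Sms, Amd1 and Sat1 would pass, as would 2059 of all 11291 genes. These comparisons reuse the anti-IgM libraries of the responses above. The miR-148a and control libraries did not overlap for 5 of 8 members, as was the case for 43.8% of genes tested, and they overlapped for Azin1, Oaz1 and Oaz2.

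Srm had 72.5 and 65.8 CPM in the miR-148a line against 85.7 and 132 CPM in the control line. Its log2 difference was -0.66 ± 0.19 (adjusted p = 0.121, 95% interval -1.10 to -0.23). Sms had 342 and 245 CPM in the miR-148a line against 502 and 379 CPM in the control line, a log2 difference of -0.59 ± 0.21 (adjusted p = 0.182, interval -1.05 to -0.12). For both, the lower control library was still above the higher miR-148a library. Odc1 had 869.5 and 629.8 CPM in the miR-148a line against 981 and 1007 CPM in the control line, a log2 difference of -0.41 ± 0.14 (adjusted p = 0.182, interval -0.73 to -0.08). The difference was -0.34 ± 0.12 for Amd1 (adjusted p = 0.192, interval -0.63 to -0.06) and -0.33 ± 0.13 for Sat1 (adjusted p = 0.219, interval -0.62 to -0.04). Sat1 thus had the same sign as the synthesis enzymes between the lines and the opposite sign in the responses. The regulators Azin1, Oaz1 and Oaz2 differed by 0.01 ± 0.16, -0.03 ± 0.15 and 0.08 ± 0.10 on the log2 scale.

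With the replicate block all 5 were called lower in the anti-IgM miR-148a line, in a fit that called 8.24% of all genes lower. The values were -0.43 ± 0.09 for Odc1 (adjusted p = 0.00723), -0.67 ± 0.13 for Srm (adjusted p = 0.00392), -0.59 ± 0.07 for Sms (adjusted p = 0.000117), -0.36 ± 0.10 for Amd1 (adjusted p = 0.0269) and -0.32 ± 0.08 for Sat1 (adjusted p = 0.0194). The block hardly moved the differences and narrowed their errors. DESeq2 called Srm (adjusted p = 0.0134) and Sms (adjusted p = 0.0422), and without miR-148a anti-IgM replicate 1 Odc1 was called (-0.66, adjusted p = 0.0387). Single libraries moved these differences by more than 1.5 times in the other direction as well. Without miR-148a anti-IgM replicate 2 they were -0.19 for Odc1, -0.19 for Amd1 and -0.36 for Sms, without control anti-IgM replicate 2 the difference was -0.31 for Srm, and without control anti-IgM replicate 1 it was -0.17 for Sat1 and -0.37 for Sms. None of these was called.

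Without stimulation 0 of 8 members were called, where 0.487% of all genes were (0.248% higher and 0.239% lower). Sms had 464 and 363 CPM in the miR-148a line and 597 and 465 CPM in the control line, which separates the groups by under 1 CPM across replicates, while within each replicate the miR-148a library was the lower. Its log2 difference was -0.36 ± 0.20 (adjusted p = 0.576, 95% interval -0.82 to 0.10), and with the replicate block it was called at -0.36 ± 0.07 (adjusted p = 0.00478), where that fit called 3.37% of all genes lower. Sms is the member with the miR-148a seed match printed above, and whether the match bears on its level was not tested. Sat1 had 89.9 and 90.6 CPM in the miR-148a line against 116 and 99.9 CPM in the control line, a log2 difference of -0.26 ± 0.13 (adjusted p = 0.503, interval -0.55 to 0.03). The remaining 6 members differed by -0.19 (Srm) to 0.10 (Oaz2) on the log2 scale, and Amd1 by 0.02 ± 0.12 (interval -0.25 to 0.28). The groups did not overlap for Sms, Sat1 and Oaz2, which is 3 of 8 members, against 44.3% of genes tested.

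The response to anti-IgM was not shown to differ between the lines for any member. The difference of the responses, miR-148a line minus control line, was -0.47 ± 0.27 for Srm, -0.36 ± 0.17 for Amd1, -0.29 ± 0.20 for Odc1, -0.22 ± 0.29 for Sms and -0.07 ± 0.18 for Sat1 on the log2 scale. All 8 members had an adjusted p of 0.9996 by edgeR's quasi-likelihood test, and 0.00% of all genes were called, although 484 genes had an unadjusted p under 0.05, DESeq2 called 1 gene and the replicate block called 11. With the block the smallest adjusted p of a member was 0.292, for Amd1. The intervals without it reach -1.08 for Srm and -0.75 for Odc1 and Amd1, so differences of that size lie within them.

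**Figure D4:**
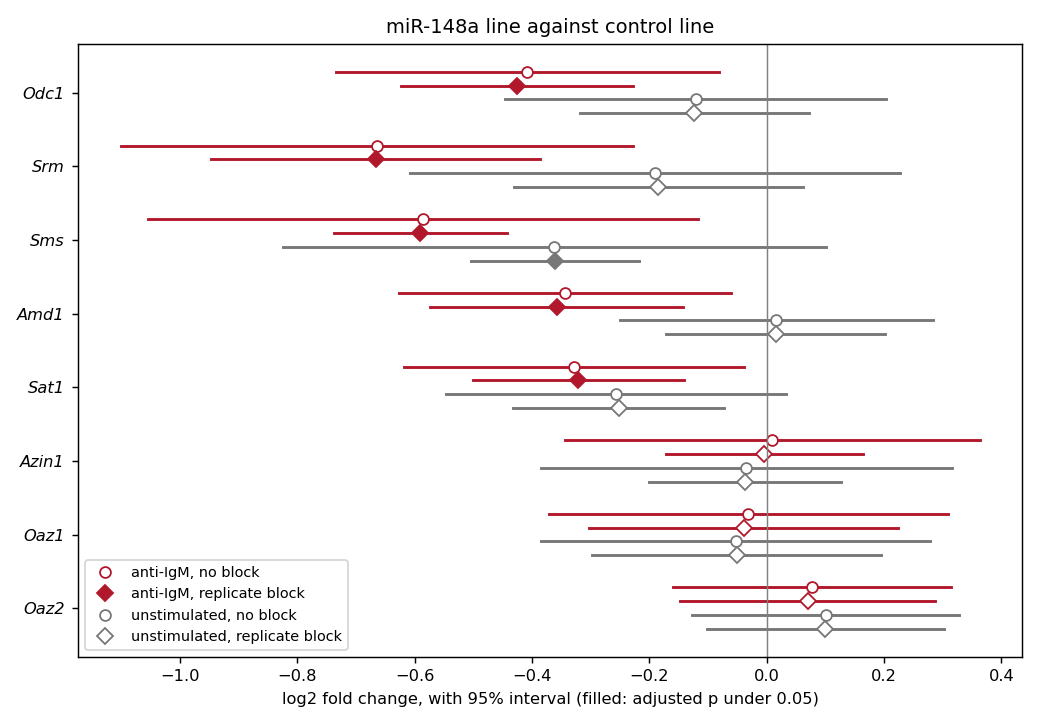
Log2 fold change of each polyamine gene in miR-148a cells against control cells, with 95% intervals, under anti-IgM (red) and unstimulated (grey), without the replicate block (circles) and with it (diamonds); filled symbols have an adjusted p under 0.05. Filled symbols appear only with the block, for Odc1, Srm, Sms, Amd1 and Sat1 under anti-IgM and for Sms without stimulation.

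Other genes of polyamine metabolism were read from lists of enzymes that feed, use or move polyamines. Their counts stand beside 14.0% of all genes lower and 14.7% higher in the miR-148a line and 7.45% lower and 9.60% higher in the control line, and with the replicate block beside 23.3% lower and 22.8% higher and 17.2% lower and 17.6% higher. Of 9 arginine and ornithine genes 5 passed the filter, and 2 fell in each line with none higher. Aldh18a1, which makes the glutamate-derived precursor of ornithine and proline, averaged 60.7 ± 6.99 CPM in miR-148a cells with anti-IgM against 128 ± 3.61 without, and 94.8 ± 7.87 in control cells with anti-IgM against 158 ± 9.63 without (SD, n = 2 each). Its log2 fold change was -1.08 ± 0.12 (adjusted p = 0.000671) in the miR-148a line and -0.74 ± 0.12 (adjusted p = 0.00485) in the control line. Slc7a1, a cationic amino acid transporter that imports arginine, fell by 0.78 ± 0.14 (adjusted p = 0.00392) in the miR-148a line and by 0.63 ± 0.14 (adjusted p = 0.0175) in the control line on the log2 scale. The Slc7a1 call of the control line was lost without control anti-IgM replicate 1 (adjusted p = 0.105) or unstimulated control replicate 2 (adjusted p = 0.111). The other 3 lay between -0.03 and 0.53. Among them Ass1, which makes the precursor of arginine, had 0.53 (adjusted p = 0.0616) in the miR-148a line and was called higher there with the block (0.54 ± 0.14, adjusted p = 0.00648).

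Of 10 genes of the methionine cycle and of methylthioadenosine salvage, which supplies and recycles the aminopropyl donor, 9 passed and 4 fell in each line with none higher. Mat2a, which makes S-adenosylmethionine, averaged 219 ± 12.8 CPM in miR-148a cells with anti-IgM against 469 ± 25.6 without, and 259 ± 43.3 in control cells with anti-IgM against 442 ± 29.7 without. Its log2 fold change was -1.10 ± 0.13 (adjusted p = 0.000722) in the miR-148a line and -0.77 ± 0.13 (adjusted p = 0.00552) in the control line. The salvage enzymes Enoph1, Mri1 and Mtap fell by 0.85 ± 0.12, 0.80 ± 0.13 and 0.73 ± 0.12 in the miR-148a line and by 0.72 ± 0.11, 0.56 ± 0.13 and 0.44 ± 0.12 in the control line, with adjusted p from 0.00136 to 0.0343. In the control line Mtap was no longer called without any 1 of 6 libraries (adjusted p 0.0604 to 0.163) and Mri1 without any 1 of 3 (0.0727 to 0.114). With the replicate block 7 of these genes fell in the miR-148a line, with Ahcy (-0.27 ± 0.08), Adi1 (-0.27 ± 0.10) and Mtr (-0.29 ± 0.09) added at adjusted p from 0.0110 to 0.0432. The other 5 lay between -0.29 and 0.07 in both lines.

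Of 7 measured genes that use or carry polyamines, 3 fell in the miR-148a line and 1 in the control line. Eif5a, the translation factor that carries the spermidine-derived residue hypusine, averaged 1074 ± 130.2 CPM in miR-148a cells with anti-IgM against 1499 ± 59.9 without, and 1268 ± 44.0 in control cells with anti-IgM against 1528 ± 6.40 without. Its log2 fold change was -0.48 ± 0.10 (adjusted p = 0.00749) in the miR-148a line and -0.27 ± 0.10 (adjusted p = 0.0983) in the control line, and with the replicate block also the control line passed (adjusted p = 0.0132). Without the block it was the 1 of 3 measured hypusination genes called, and with the block Dhps, which starts hypusine synthesis, was also called lower in the miR-148a line (-0.45 ± 0.15, adjusted p = 0.0236). Of 8 transport genes 4 passed. Slc3a2, the heavy chain of several amino acid transporters with a described part in polyamine export, fell by 0.45 ± 0.10 (adjusted p = 0.0114) in the miR-148a line and by 0.50 ± 0.10 (adjusted p = 0.0131) in the control line. Atp13a3, a polyamine-transporting ATPase, fell by 0.63 ± 0.13 (adjusted p = 0.00645) in the miR-148a line and had -0.27 ± 0.13 (adjusted p = 0.176) in the control line, where the replicate block called it (adjusted p = 0.0189) together with Atp13a2 (-0.28 ± 0.08, adjusted p = 0.0166). Without unstimulated miR-148a replicate 1 the adjusted p in the miR-148a line was 0.0619 for Eif5a, 0.0501 for Atp13a3 and 0.0719 for Slc3a2, and Slc3a2 was also lost in the miR-148a line without 2 other libraries (0.0578 and 0.0708) and in the control line without 2 (0.0875 and 0.0914).

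Of 6 genes of breakdown and further regulation 3 passed, and 1 rose in 1 line. Smox, the oxidase that turns spermine into spermidine, averaged 7.80 ± 0.595 CPM in miR-148a cells with anti-IgM against 4.18 ± 0.262 without, and 4.46 ± 1.51 in control cells with anti-IgM against 2.73 ± 0.0970 without. It rose by 0.89 ± 0.26 on the log2 scale in the miR-148a line (adjusted p = 0.0333) and had 0.66 ± 0.29 (adjusted p = 0.147) in the control line. The call was lost without any 1 of the 4 miR-148a libraries (adjusted p 0.105 to 0.143) and by DESeq2 (adjusted p = 0.103). The 13 listed genes that did not pass the filter, among them Arg1, Arg2, Sat2 and Oaz3, had at most 0.369 CPM in any library.

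Myc, which encodes the activator of Odc1, had 78.1 and 75.7 CPM in miR-148a cells with anti-IgM against 335 and 315 CPM without. Control cells had 55.4 and 137.3 CPM with anti-IgM against 257 and 296 CPM without. All anti-IgM libraries were below the unstimulated ones, and the 2 control anti-IgM libraries lay furthest apart. Myc fell by 2.08 ± 0.32 (adjusted p = 0.00208) in the miR-148a line and by 1.50 ± 0.31 (adjusted p = 0.0141) in the control line on the log2 scale. Without unstimulated control replicate 2 the control value was -1.40 (adjusted p = 0.0669). Its partner Max fell by 0.41 ± 0.12 (adjusted p = 0.0324) in the miR-148a line and had -0.39 ± 0.12 (adjusted p = 0.0524) in the control line, where RLE scaling, DESeq2, unrounded counts, no filter and the replicate block each called it (adjusted p 0.00295 to 0.0462). The Max call of the miR-148a line was lost without any 1 of 6 libraries (adjusted p 0.0504 to 0.164).

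**Figure D5:**
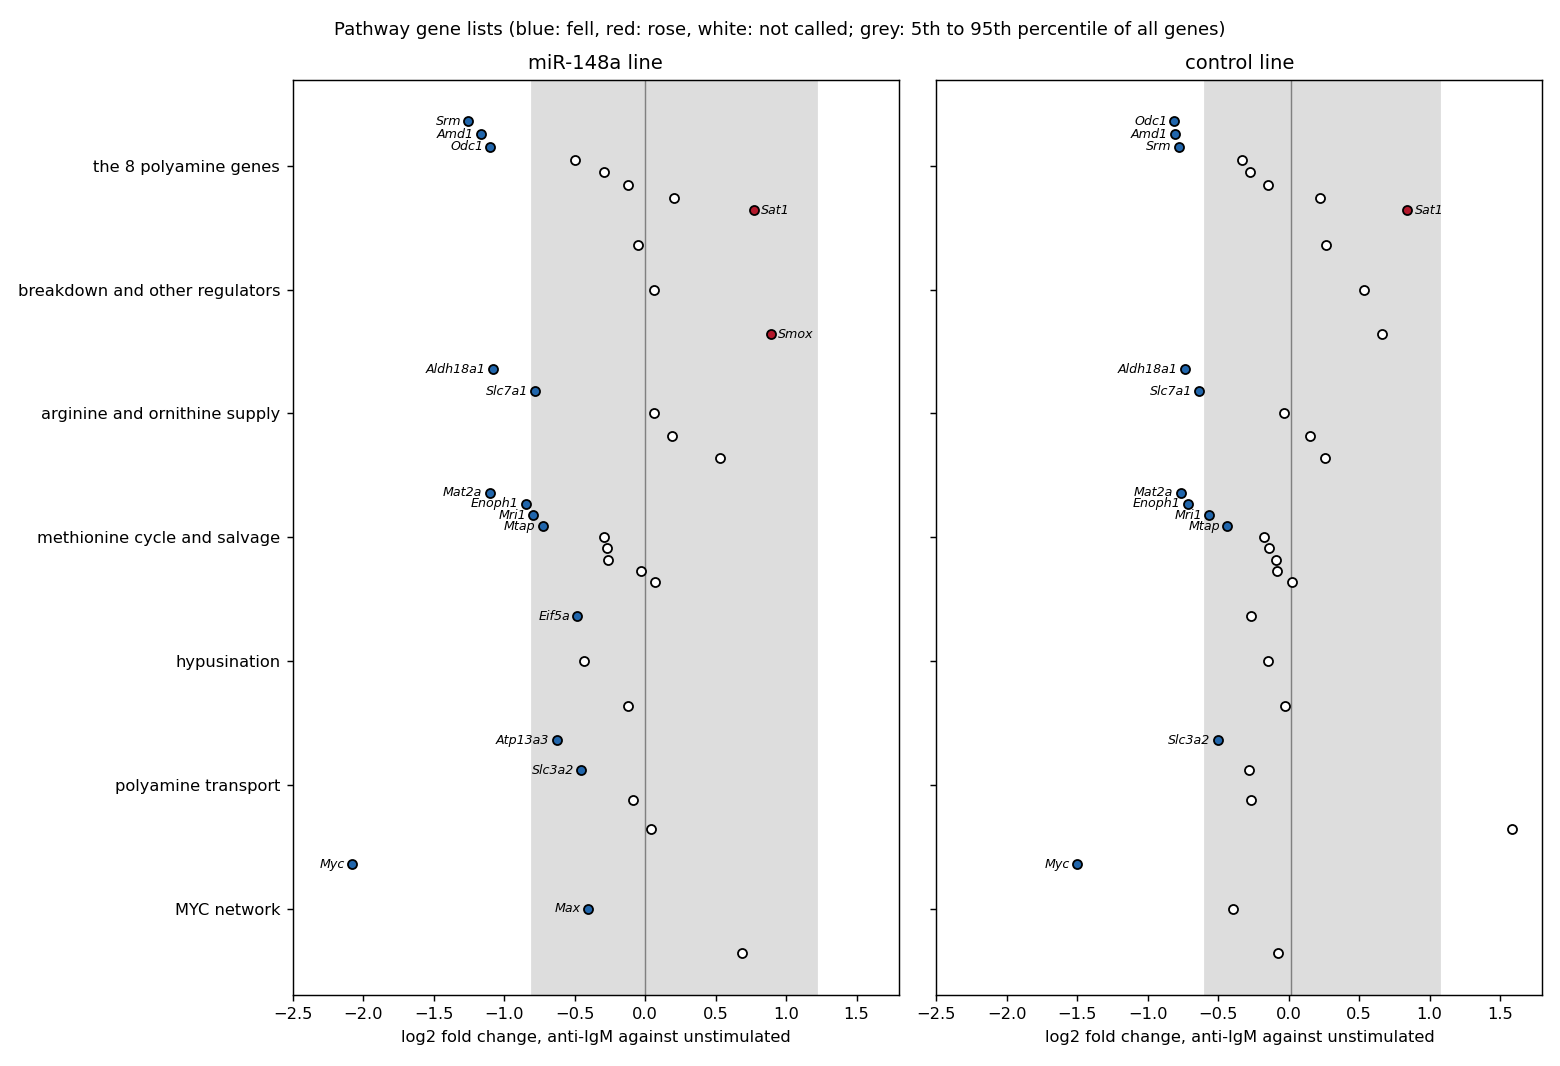
Log2 fold change with anti-IgM against no stimulation for the 8 polyamine genes and the pathway lists, in the miR-148a line (left) and the control line (right); each point is 1 gene that passed the filter, blue fell, red rose and white was not called, and the grey band spans the 5th to 95th percentile of all genes. Substrate supply, methionine cycle and MYC network genes that were called lie on the left, whereas Sat1 and Smox are the called genes on the right.

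Between the lines under anti-IgM, Aldh18a1 was the 1 listed pathway gene called, where 1.16% of all genes were called lower and 1.36% higher. Its log2 difference was -0.65 ± 0.12 (adjusted p = 0.0327), with 60.7 ± 6.99 CPM in the miR-148a line and 94.8 ± 7.87 CPM in the control line. Its adjusted p was 0.0679 to 0.214 without any 1 of 5 libraries and 0.114 with only the 4 libraries compared. With the replicate block Smox was also called higher under anti-IgM (0.88 ± 0.24), and Ahcy (-0.30 ± 0.08), Enoph1 (-0.39 ± 0.12), Dhps (-0.50 ± 0.16), Eif5a (-0.24 ± 0.08) and Atp13a3 (-0.44 ± 0.08) lower, with adjusted p from 0.00348 to 0.0421. Without stimulation the block called Aldh18a1 lower (-0.31 ± 0.09, adjusted p = 0.0485) and Mtr (0.31 ± 0.09, adjusted p = 0.0448) and Gpc1 (2.86 ± 0.60, adjusted p = 0.0104) higher, where 0 listed pathway genes were called without the block. Gpc1 was near the 3-count floor in the control line, with 1 and 4 counts against 15 and 21 in the miR-148a line.

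Genes with the pattern most like a member's were found by Pearson's r of log2 CPM over the 8 libraries among 8387 genes. For Odc1 these were Tomm5 (r = 0.997), Clns1a (0.996) and Ttc27 (0.996). For Srm they were Prmt5 (0.998), Mybbp1a (0.998) and Ddx21 (0.997), and for Sat1 Pfkm (0.992), Ezh2 (0.991) and Synj1 (0.987). The 8 libraries fall into anti-IgM and unstimulated sets, so they are not 8 independent points.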

How the data were processed

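RNA was measured in 8 libraries. The authors deposited 1 table holding an estimated count (expected count) per gene symbol, not normalized. In the file 9.11% to 12.4% of values were not whole. The submitters' processing notes name TopHat2 2.0.13 and Bowtie2, which are aligners, cutadapt, CASAVA 1.8, edgeR and Partek 6.15.0730, with mm10 and GRCm38 as builds. The annotation, the strand setting and the treatment of reads that match several genes were not stated, so reads of near-identical genes may be split.

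Of 24081 rows, 27 carried calendar dates in place of symbols (0.213% to 0.235% of counts) and were left out. Counts were rounded to whole numbers, filtered with filterByExpr to 11291 genes, scaled by TMM and fitted with edgeR 4.0.16 (R 4.3.3) as 4 group means. The quasi-likelihood F test was adjusted by Benjamini-Hochberg over all genes tested, with a threshold of 0.05. SE is the absolute log2 fold change over the square root of F. Total counts were 5810227 to 18660373 per library, and the 3-count floor covers counting error only. On simulated data for the control response, over 11291 genes, the test recovered 73.3% of genes changed by log2 1 and 91.6% of those changed by log2 2, with 8 false among 172 calls. The simulation changed 200 genes and gave libraries of one replicate number no shared deviation, unlike the deposited libraries described below. Its rates may therefore not hold for the deposited data.

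Groups came from the labels, which do not say whether replicates were separate cultures. The p-values therefore describe library-to-library spread that could be technical. No replicate pair matched within sampling noise (mean chi-square per gene 9.40 to 13.6 on 1 degree of freedom). The replicate number was taken from the prefix of each label's library name. Libraries with the same number shared their deviations from the group mean (Pearson's r across 11291 genes 0.495 to 0.569 in all 6 pairs of groups, genes not being independent replicates). The planned main fit, on group means, leaves this pairing out, and the calls without the block rest on it. The fit with the replicate as a block takes the pairing in, and its values stand beside results they change.

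The members and lists were chosen with earlier results of these data known. Named are all 8 members, their near-identical copies, and the 3 genes most like Odc1, Srm and Sat1. From each pathway list up to 4 genes called by the main fit are named per comparison, by size of change. Listed genes called only with the replicate block, monocyte and macrophage markers, and some listed genes that did not pass the filter are named in addition. Alternatives were RLE scaling, no filter, DESeq2 1.42.0, the replicate block, only the libraries compared, unrounded counts, leaving out each library, and summing Amd1 with Amd2. Summing Oaz1 with Oaz1-ps, and the levels per length with copies summed, were added after seeing the data. Gene positions are from GENCODE M21 (GRCm38), promoter and miRNA sequences from RefSeq (GRCm38.p6).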

Additional observations from a re-analysis of the deposited data

How the results depend on the processing

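Of 562 alternative values for the 8 members over 5 comparisons, 513 kept their direction and their side of the threshold, 18 passed it newly, 3 no longer passed and 28 changed sign, none of which was called. Members called in the miR-148a response numbered 4 to 6 and in the control response 2 to 4 on leaving out each library in turn. For the line difference they numbered 0 to 1 under anti-IgM. Under anti-IgM 1 member was called with no filter (Srm, adjusted p = 0.0359), 2 with DESeq2 and 5 with the replicate block, and without stimulation 1 with the replicate block. The block also moved the count over all genes to 5205 against 3238 (miR-148a response), 3929 against 1925 (control response), 1822 against 284 (line difference under anti-IgM), 823 against 55 (unstimulated) and 11 against 0 (difference of responses, 1 with DESeq2). The unstimulated count was 179 with no filter and 150 with DESeq2, and the anti-IgM count was 450 with no filter and 16 with only the libraries compared. On leaving out single libraries these counts were 1481 to 3155, 540 to 2082, 0 to 222, 0 to 76 and 0 to 0. In the control response the split was 1084 higher and 841 lower, but 972 higher and 1244 lower with no filter. The causes were not tested.

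Sign changes were small. With no filter the log2 value was -0.021 for Amd1 (lines unstimulated) and 0.022 for Oaz2 (difference of responses, 0.0025 with unrounded counts). With the block it was -0.0041 for Azin1 (lines under anti-IgM). Summed with its pseudogene, Oaz1 had 0.0013 (miR-148a response), 0.10 (lines unstimulated) and 0.19 (lines under anti-IgM). Leaving out single libraries gave, for Oaz1, -0.33 to 0.061 (miR-148a response), -0.18 to 0.062 (lines unstimulated), -0.24 to 0.15 (lines under anti-IgM) and -0.18 to 0.21 (difference of responses). For Azin1 it gave -0.16 to 0.078, -0.23 to 0.22 and -0.20 to 0.25 in the last 3 of these. It gave -0.062 to 0.090 for Amd1 (lines unstimulated), -0.22 to 0.084 for Sat1 and -0.092 to 0.058 for Oaz2 (differences of responses), and -0.071 to 0.15 and -0.18 to 0.042 for Oaz1-ps (miR-148a and control responses). A library left alone in its group is assumed to vary like the others. The simulated data held changes of log2 1 and 2 alone, so recovery of smaller differences at this depth was not tested.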
